A study of Mus musculus with 15 samples.

Results

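The 89 genes described here are nuclear genes of oxidative phosphorylation, the process by which mitochondria turn the electrons of nutrients into ATP. They were chosen by name from a table of 24419 genes. The names were those that start with Nduf, Uqcr, Cox4 to Cox8 or Atp5, together with Sdha, Sdhb, Sdhc, Sdhd, Cycs, Cyc1 and Atpif1. Of 95 rows with these names, 89 had a mean of at least 1 CPM (a gene's count divided by the library total, times 1000000) over all 15 libraries. All 89 also passed the filter on low counts, which left 16910 genes for the tests. Just above the limit of 1 CPM lay Cox6a2 at 1.27 CPM and Ndufa4l2 at 1.47 CPM, and just below it Cox7a1 at 0.967 CPM and Cox4i2 at 0.793 CPM. Messages made inside the mitochondrion were not analysed here.

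The libraries came from punches of the suprachiasmatic nucleus (SCN), the hypothalamic pacemaker that sets daily rhythms in mammals. RNA was sequenced in 4 groups, named here by genotype and by circadian time (CT), the time of the animal's own day. They were REV-ERB alpha and beta double knockout (DKO) at CT16 with 4 libraries, control at CT16 with 5, DKO at CT4 with 3 and control at CT4 with 3. All mice were on a C57BL/6 background and 8 to 12 weeks old, and each library pooled 2 to 4 punches. The library titles label the DKO libraries KO and the control libraries WT. The sources used here do not give the alleles, any Cre driver, what the controls carried beyond that label or the sex of the mice. CT4 lies in the subjective day and CT16 in the subjective night.

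Electrons enter the respiratory chain at complex I, from NADH, or at complex II, from succinate, and pass through complex III and cytochrome c to complex IV, which hands them to oxygen. The proton gradient built on the way drives ATP synthase, also called complex V. REV-ERB alpha and beta, encoded by Nr1d1 and Nr1d2, are haem-binding nuclear receptors that repress transcription within the circadian clock, and they have been linked to mitochondrial gene expression in muscle and other tissues.

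Total counts ran from 32580803 to 68757624 per library. The labels do not tie pools to litters or days, and p-values measure the spread between pools. Nr1d1 had 241 to 378 CPM in DKO at CT16 against 135 to 150 CPM in control at CT16, and 226 to 252 CPM in DKO at CT4 against 198 to 282 CPM in control at CT4. Nr1d2 had 198 to 259 CPM in DKO at CT16 against 96.6 to 118 CPM in control at CT16, and 163 to 181 CPM in DKO at CT4 against 116 to 130 CPM in control at CT4. Nr1d2 was higher in every DKO library than in every control library at both times, and Nr1d1 was so at CT16, with overlap at CT4. Both rows sum reads over all exons, and the deleted part is not given in the sources used here, so that they do not check the genotype labels. All 16 SCN neuron markers on a fixed list were detected in the tissue. Their summed level was 1206 to 1759 CPM in DKO at CT16, 968 to 1637 CPM in control at CT16, 1284 to 1353 CPM in DKO at CT4 and 1566 to 1683 CPM in control at CT4.

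Between DKO and control, 1 of the 89 genes passed the test at either time, and it was the same gene at both, Atpif1. It encodes IF1, the small protein that binds ATP synthase and blocks it from running in reverse and breaking ATP down. Atpif1 lies at chr4:132530555-132535414 (mm10, minus strand), its row covers 1491 exonic bases, and no exon of another row overlaps it. No near-identical copy of its coding sequence was found among annotated mouse transcripts.

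At CT16 Atpif1 had 82.1, 79.9, 84.9 and 78.3 CPM in the 4 DKO libraries, against 91.3, 86.0, 91.9, 96.8 and 94.4 CPM in the 5 control libraries. At CT4 it had 91.1, 95.2 and 90.3 CPM in the 3 DKO libraries, against 75.8, 81.2 and 77.0 CPM in the 3 control libraries. Every DKO library was thus below every control library at CT16 and above every control library at CT4. Groups did not overlap in the same way for 2.94% of all genes at CT16 and 12.1% at CT4. Group means were 81.3 ± 2.83 CPM in DKO at CT16 (SD, n = 4), 92.1 ± 4.05 in control at CT16 (n = 5), 92.2 ± 2.65 in DKO at CT4 (n = 3) and 78.0 ± 2.85 in control at CT4 (n = 3). DKO over control, Atpif1 fell at CT16, by a log2 fold change of -0.18 ± 0.04 (SE; edgeR quasi-likelihood test, Benjamini-Hochberg adjusted p = 0.0239). It rose at CT4, by 0.24 ± 0.05 (adjusted p = 0.0383). The difference between these 2 effects was -0.42 ± 0.07 on the log2 scale, with an edgeR adjusted p of 0.0511, which missed the threshold of 0.05. With time, CT16 over CT4, Atpif1 rose in control, by 0.24 ± 0.05 (adjusted p = 0.00916). In DKO the same change of time gave -0.18 ± 0.05, with an adjusted p of 0.0660, and the CT16 libraries were all below the CT4 libraries.

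These calls of Atpif1 stood close to the threshold, although its direction was the same under every alternative run. Among the alternatives, 1 left out 3 libraries chosen as apart in tissue markers, though others lay as far out in some marker lists. The CT4 genotype call was kept under 13 of 27 alternatives. It was lost with upper quartile factors, with the replicate number as a block, with the length trend removed, with both of these and without the 3 libraries apart in tissue markers (control CT4 replicate 1, DKO CT16 replicates 3 and 4), with adjusted p between 0.0521 and 0.226. It was also lost when any of the 6 CT4 libraries was left out, with adjusted p between 0.0828 and 0.142, and without DKO CT16 replicate 2 or control CT16 replicate 1 or 3, with adjusted p between 0.0509 and 0.0524. At CT16 it was kept under 18 of 27, and lost with the compared groups alone, with the block, with the block and the length trend removed and without those 3 libraries, with adjusted p between 0.0794 and 0.112. It was also lost there without DKO replicate 2 (adjusted p = 0.0853) or 4 (0.0749), and without control replicate 3 (0.0502), 4 (0.0685) or 5 (0.0553). In control over time it was kept under 24 of 27, and lost with the block (adjusted p = 0.0702), with the block and the length trend removed (0.0611) and without control CT4 replicate 1 (0.0580). The interaction was called under 8 of 26 alternatives, with adjusted p from 3.07e-05 to 0.0486: DESeq2, limma voom, no filter, a stricter filter, marker covariates, without the 3 libraries, without DKO CT16 replicate 3 and without control CT16 replicate 2. In DKO over time a call was gained with DESeq2 (adjusted p = 0.0209), with limma voom (0.0248) and without DKO CT16 replicate 3 (0.0246).

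**Figure D1:**
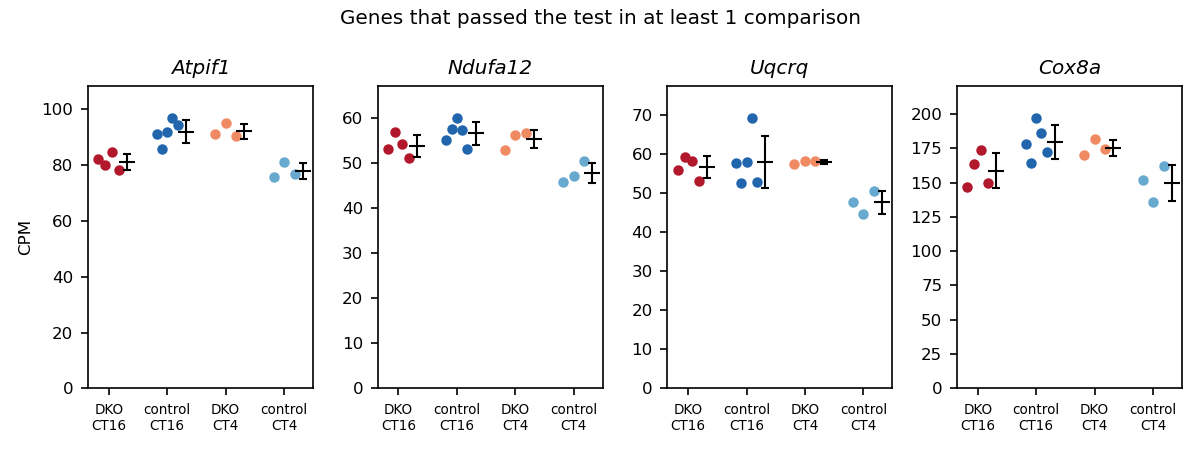
CPM (vertical axis, from 0) of Atpif1, Ndufa12, Uqcrq and Cox8a in each library, by group; points are libraries and the black marks are the group mean ± SD. The 4 DKO CT16 libraries of Atpif1 lie below all control CT16 libraries, and its 3 DKO CT4 libraries lie above all control CT4 libraries.

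Below are the RefSeq windows (build GRCm38.p6) from 250 bases before to 50 bases after the annotated start of Atpif1 and of Cox8a, a second gene that passed a test, printed because both windows hold letters known as binding motifs of factors of respiratory genes. Atpif1 is chr4:132535365-132535664, minus strand, and Cox8a is chr19:7217567-7217866, minus strand, both written 5′ to 3′ along the gene. Capitals mark every match to the motifs searched.
Atpif1: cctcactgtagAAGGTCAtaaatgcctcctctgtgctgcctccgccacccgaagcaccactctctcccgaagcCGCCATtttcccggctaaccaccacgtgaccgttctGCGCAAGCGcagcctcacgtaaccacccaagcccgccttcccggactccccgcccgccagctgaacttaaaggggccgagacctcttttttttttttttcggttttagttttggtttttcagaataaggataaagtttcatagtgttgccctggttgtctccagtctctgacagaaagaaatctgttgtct
Cox8a: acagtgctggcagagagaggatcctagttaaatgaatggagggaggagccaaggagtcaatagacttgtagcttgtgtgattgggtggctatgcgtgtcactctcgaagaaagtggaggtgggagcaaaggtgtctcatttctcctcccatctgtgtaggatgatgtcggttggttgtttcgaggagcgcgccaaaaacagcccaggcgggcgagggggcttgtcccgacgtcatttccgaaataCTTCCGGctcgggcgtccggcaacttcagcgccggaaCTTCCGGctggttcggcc

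The letters searched, on both strands, were GCGCANGCG for NRF1, CCGGAAG for GABPA and other ETS factors, AAGGTCA for the ERR receptors, TAGGTCA for REV-ERB and ROR receptors, and ATGGCG for YY1. In the Atpif1 window the ERR letters begin at -239 and the NRF1 letters at -141, counted from the start at 0, and the YY1 letters lie on the opposite strand at -177. The Cox8a window holds the ETS letters at -5 and at 32, both on the opposite strand. The window of Ndufa12 held none of the 5, and Uqcrq is named only. RefSeq windows were found for 74 of the 89 genes, 80 windows in all, since some genes have several annotated starts. The NRF1 letters were in 24 of the 80 windows, or 30% against 6.25% of 32851 windows of all genes, and the YY1 letters in 25, or 31.3% against 8.93%. GABPA letters were in 17 (21.3% against 8.86%) and ERR letters in 8 (10% against 4.72%). The REV-ERB and ROR letters were in 3 windows, those of Cox7b, Ndufa11 and Ndufb10, or 3.75% against 2.61%. A match is a description of letters and shows no binding.

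Levels per length, as mean CPM per kilobase of exonic length over all libraries, ran from 1.53 for Ndufa4l2 to 501 for Atp5b, the catalytic beta subunit of ATP synthase. The median of the 89 genes was 87.7 CPM per kb. By role, the median was highest for complex IV at 147 CPM per kb, then complex V at 124, complex III at 109, complex II at 83.7, accessory subunits of complex I at 73.2 and its core subunits at 64.0. Assembly factors of complex I and other Nduf rows stood at 10.1 CPM per kb. Atpif1 stood at 58.0 CPM per kb, below the median of the synthase it regulates, and Cycs, the mobile electron carrier cytochrome c, at 19.2 CPM per kb.

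Where a complex has a ubiquitous form and a tissue form of a subunit, the SCN held mainly the ubiquitous one. Cox4i1 had 386 CPM per kb, against 1.09 for Cox4i2, the form known from lung and low oxygen. Cox6a1 had 238 CPM per kb against 1.93 for the muscle form Cox6a2, and Cox8a had 307 against 0.131 for the muscle form Cox8b. Cox6b1 stood at 224 CPM per kb and the testis form Cox6b2 at 3.44. Cox7a2 stood at 94.2 CPM per kb and the muscle form Cox7a1 at 2.64. The testis forms Cox7b2 and Cox8c were at 0.226 and 0.00711 CPM per kb, and Cyct, the testis cytochrome c, had counts in 2 libraries, 6 in DKO CT16 replicate 3 and 2 in control CT4 replicate 1. Ndufa4, a subunit found in complex IV in spite of its name, stood at 218 CPM per kb against 1.53 for Ndufa4l2, known as a hypoxia-induced relative. The 3 genes that encode the same c subunit of the synthase ring differed, with Atp5g3 at 267 CPM per kb, Atp5g1 at 105 and Atp5g2 at 98.4. Atp5g1 and Atp5g2 each have an annotated processed pseudogene of at least 99% identity, so that their counts are uncertain.

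**Figure D2:**
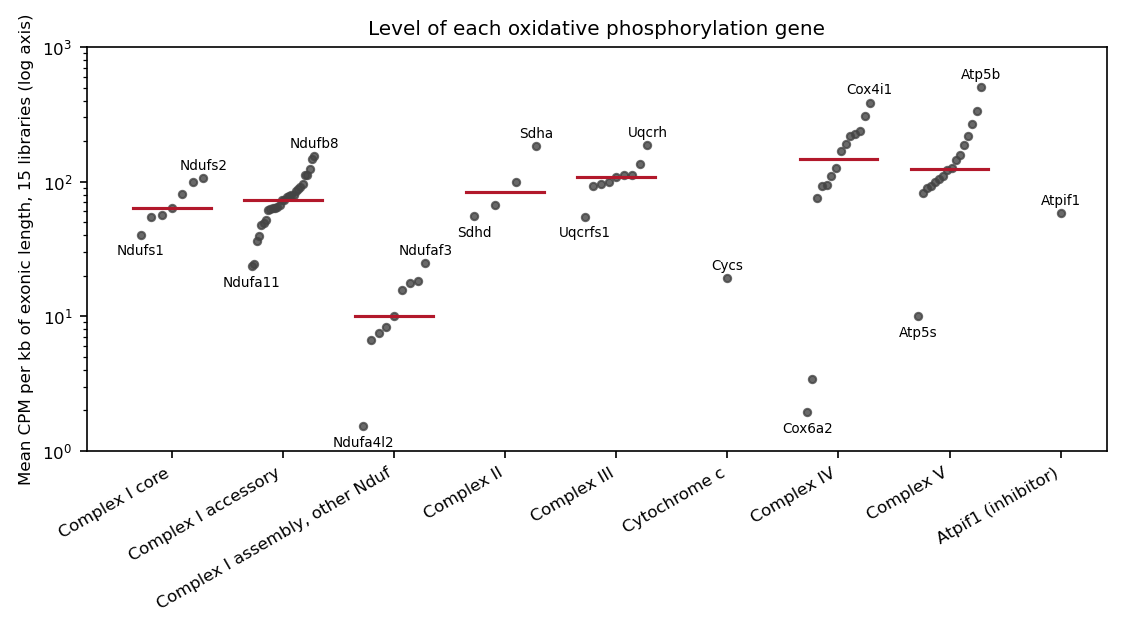
Mean CPM per kilobase of exonic length over 15 libraries (log axis) for each of the 89 genes, by role; points are genes and red lines are role medians. Atp5b at 501 and Cox4i1 at 386 stand highest, and the assembly factors lie near 10.

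Ndufs5, an accessory subunit of complex I, is absent from the 89 genes because its row held no count in 13 libraries and 2 counts in each of the other two. The row of BC002163, annotated as a processed pseudogene 99.4% identical to the Ndufs5 coding sequence, covers 484 of the 509 exonic bases of Ndufs5 on the same strand in the deposited table. BC002163 had 56 to 126 counts per library. How reads shared by both rows were assigned is not given in the sources used here, so that no level of Ndufs5 can be read from these counts. Exons of 9 of the 89 genes overlap a row on the opposite strand, among them Ndufa13, which shares 344 bases with Tssk6. The strand setting is not given, and reads of such partners cannot be told apart. Coding sequences of 22 of the 95 rows had a copy of at least 95% identity over at least 80% of their length, among them Ndufa12, Cycs, Cox5b, Atp5l, Ndufs3 and Ndufb4.

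At CT16, 1 of the 89 genes passed the test between DKO and control, Atpif1, which fell, beside 4.66% of all genes called. No member rose, beside 2.83% of all genes called higher and 1.83% called lower. The median log2 fold change, DKO over control, was -0.05 against 0.00 for all genes, and 67 of 89 were below 0, or 75.3% against 49.6% of all genes, with 50.4% of all genes above 0. At an unadjusted p under 0.05, 1 member was higher and 6 were lower, beside 10.4% and 9.62% of all genes. Groups did not overlap for 3 members that were lower in DKO, Atpif1, Cox5a and Ndufaf5, and for 1 that was higher, Cox6a2, beside 2.94% and 4.03% of all genes. Most differences were small: 72 of 89 lay within 0.1 of 0, and the 95% interval lay within 0.5 of 0 for 86.

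Cox5a, a subunit of complex IV, had 72.2, 72.7, 71.5 and 57.4 CPM in DKO at CT16, against 87.6, 72.7, 84.9, 89.2 and 72.7 CPM in control at CT16. The DKO libraries were below the control libraries by a narrow margin, and DKO replicate 4 was far below the other 3. The log2 fold change was -0.25 ± 0.08, with an edgeR adjusted p of 0.0724. Ndufaf5, an assembly factor that hydroxylates a core subunit of complex I, had 27.7, 28.7, 26.2 and 23.7 CPM in DKO at CT16, against 30.7, 29.4, 32.02, 30.2 and 30.1 CPM in control at CT16. It had 23.7, 25.8 and 24.7 CPM in DKO at CT4, against 27.6, 25.9 and 27.9 CPM in control at CT4. DKO libraries were below control libraries at both times, at -0.20 ± 0.06 at CT16 (edgeR adjusted p = 0.0674) and -0.13 ± 0.07 at CT4 (adjusted p = 0.413). Cox6a2, the muscle form near the detection limit, had 1.37 to 2.74 CPM in DKO at CT16, against 0.955 to 1.36 CPM in control at CT16, with 0.58 ± 0.25 (edgeR adjusted p = 0.199).

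In the other roles with several members, the smallest p at CT16 belonged to Sdha, the flavoprotein of complex II (-0.09 ± 0.04), Cyc1, the cytochrome of complex III (-0.11 ± 0.06), Atp5g1 (-0.13 ± 0.06), Ndufv2, a core subunit of complex I (-0.07 ± 0.04), and Ndufb4, an accessory one (-0.17 ± 0.09). Their edgeR adjusted p-values lay between 0.239 and 0.347. Cycs stood at -0.01 ± 0.09.

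At CT4, 1 of the 89 genes passed the test, again Atpif1, which rose, beside 1.28% of all genes called. None fell, beside 0.574% of all genes called higher and 0.71% called lower. The median log2 fold change was 0.07, DKO over control, against -0.00 for all genes, and 73 of 89 were above 0, or 82.0% of the members against 49.5% of all genes. At an unadjusted p under 0.05, 18 were higher and 0 lower, or 20.2% of the members against 6.25% of all genes in the higher direction and 8.54% in the lower. Every DKO library lay above every control library for 24 members, or 27.0% against 12.1% of all genes. For 1 member, Ndufaf5, every DKO library lay below, against 13.3% of all genes.

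Complex IV had the largest median at CT4 among roles with several members, 0.16, and all 14 of its members were above 0, but none of them passed the test. Below the limit of 1 CPM, Cox4i2 went the other way, at -0.99. It had 0.329 to 0.635 CPM in DKO at CT4 against 0.872 to 1.07 CPM in control at CT4. Cox7a1, also below the limit, stood at 0.25, and neither was called. Medians were 0.09 for complex II, 0.08 for complex III, 0.07 for complex V, 0.04 for both core and accessory subunits of complex I, and 0.02 for the assembly factors. Cox8a, the smallest nuclear subunit of complex IV, had 170, 182 and 175 CPM in DKO at CT4, against 152, 135 and 162 CPM in control at CT4. All 3 DKO libraries lay above control, with a log2 fold change of 0.23 ± 0.08 and an edgeR adjusted p of 0.177. Cox5b, which holds a zinc ion in complex IV, had 126, 125 and 105 CPM in DKO at CT4, against 87.9, 79.2 and 107 CPM in control at CT4. Its groups overlapped, and its fold change of 0.38 ± 0.13 had an adjusted p of 0.171 in edgeR.

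Ndufa6, an accessory subunit of complex I, came closest to a call at CT4 after Atpif1. It had 67.1, 70.4 and 68.3 CPM in DKO at CT4, against 59.5, 53.8 and 53.1 CPM in control at CT4, with a log2 fold change of 0.31 ± 0.08 and an edgeR adjusted p of 0.0578. The groups did not overlap. Atp5l, subunit g of ATP synthase, had 61.0, 61.9 and 62.0 CPM in DKO at CT4, against 51.5, 49.0 and 50.3 CPM in control at CT4, at 0.29 ± 0.08 (edgeR adjusted p = 0.0883). Uqcrq, a small subunit of complex III, had 57.6, 58.4 and 58.4 CPM in DKO at CT4, against 47.7, 44.7 and 50.6 CPM in control at CT4, at 0.29 ± 0.09 (edgeR adjusted p = 0.119). Both were higher in all DKO libraries. Ndufs3, a core subunit of complex I, stood at 0.19 ± 0.06 (adjusted p = 0.162 in edgeR), Sdhb, the iron-sulphur subunit of complex II, at 0.12 ± 0.07 (0.401), and Ndufaf3, an assembly factor, at 0.16 ± 0.08 (0.369).

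**Figure D3:**
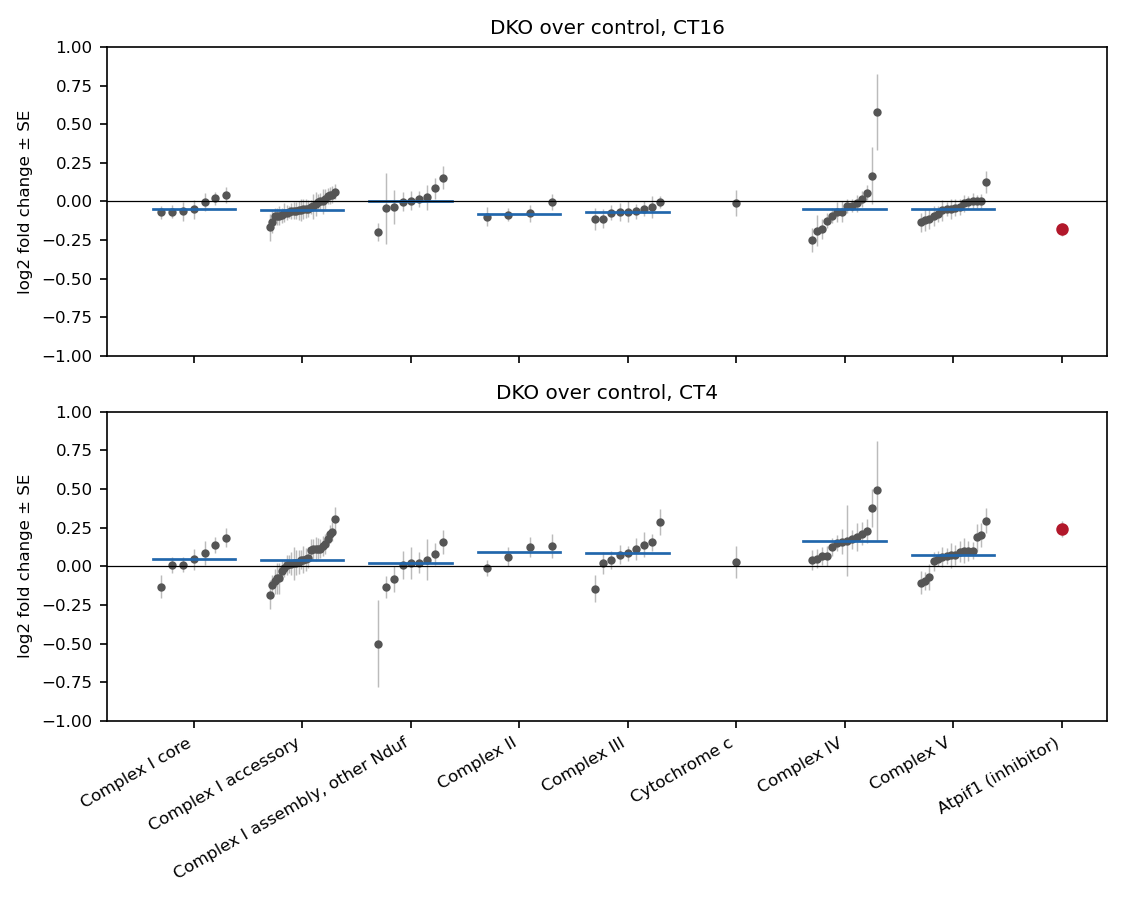
Log2 fold change of DKO over control ± SE for each of the 89 genes, by role, at CT16 (upper panel) and CT4 (lower panel); blue lines are role medians and red points passed the test. Atpif1 is below 0 at CT16 and above 0 at CT4, and the complex IV median is 0.16 at CT4.

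In control SCN, 4 of the 89 genes rose at night, CT16 over CT4, and none fell, beside 4.21% of all genes called, 2.13% higher and 2.08% lower. Beside Atpif1 they were Ndufa12, Uqcrq and Cox8a, 1 accessory subunit of complex I and 1 subunit each of complexes III and IV. The median log2 fold change of the 89 genes was 0.10, against -0.01 for all genes, and 80 were above 0 and 9 below, beside 48.6% and 51.4% of all genes. Unadjusted p was under 0.05 for 31 that were higher and 1 that was lower, the higher ones being 34.8% of the members against 9.99% of all genes, beside 9.95% of all genes lower. All CT16 libraries lay above all CT4 libraries for 23 members, or 25.8% against 7.99% of all genes, and below them for none, against 7.8% of all genes. Without control CT4 replicate 1 no member was called, without replicate 2 there was 1, and without DKO CT16 replicate 4 there were 10. Calls among all genes in these leave-outs are not given here. The 3 control CT4 libraries enter this comparison and that of genotype at CT4, so that neither is independent of the other.

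Ndufa12, which lies at chr10:94199009-94220948 on the plus strand, encodes an accessory subunit added late in complex I assembly. It had 55.0, 57.5, 59.9, 57.4 and 53.0 CPM in control at CT16, against 45.9, 47.1 and 50.3 CPM in control at CT4, and the groups did not overlap. The log2 fold change was 0.24 ± 0.05 (edgeR adjusted p = 0.0169). A processed pseudogene, Gm15920, matches 89.3% of its coding sequence at 99.5% identity, so that its count is uncertain. Its call was kept under 24 of 27 alternatives and lost without control CT4 replicate 1 (adjusted p = 0.0975) or 2 (0.0803) and without the 3 libraries apart in tissue markers (0.0684).

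Uqcrq (chr11:53428948-53430831, minus strand) had 57.7, 52.8, 58.1, 69.2 and 53.0 CPM in control at CT16, against 47.7, 44.7 and 50.6 CPM in control at CT4. Control CT16 replicate 4 was the highest library, and the groups did not overlap. The log2 fold change was 0.29 ± 0.08 (edgeR adjusted p = 0.0450). Cox8a (chr19:7215158-7217616, minus strand) had 178, 164, 197, 186 and 172 CPM in control at CT16, against 152, 135 and 162 CPM in control at CT4, at 0.26 ± 0.07 (edgeR adjusted p = 0.0469). Both calls stood just under the threshold. That of Uqcrq was lost without any 1 of the 3 DKO CT4 libraries, the 3 control CT4 libraries, DKO CT16 replicate 2 or control CT16 replicate 1, 3 or 4, with adjusted p between 0.0555 and 0.191. Its call was also lost with upper quartile factors, the compared groups alone, the block, the block with the length trend removed and without the 3 libraries apart in tissue markers (adjusted p from 0.0616 to 0.0946), and so was kept under 12 of 27 alternatives. That of Cox8a was lost without any DKO CT4 library, control CT4 replicate 1 or 2, DKO CT16 replicate 2 or control CT16 replicate 1, 3, 4 or 5, with adjusted p between 0.0594 and 0.221. It was also lost with upper quartile factors, the block and without those 3 libraries (adjusted p from 0.0617 to 0.0680), and was kept under 14 of 27 alternatives.

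By role the medians in control, CT16 over CT4, were 0.13 for complex IV, 0.12 for complex II, 0.11 for complexes III and V, 0.08 and 0.06 for accessory and core subunits of complex I, and 0.01 for assembly factors. All 7 core subunits of complex I, all 4 genes of complex II and all 9 of complex III were above 0. Ndufa2, an accessory subunit of complex I, at 0.21 ± 0.06 (edgeR adjusted p = 0.0507), Uqcrh, the hinge protein of complex III, at 0.18 ± 0.05 (0.0550), and Atp5d, the delta subunit of ATP synthase, at 0.28 ± 0.08 (0.0584) came closest to a call among the others. Atp5b, the most abundant message, had 957, 920, 1045, 1029 and 914 CPM in control at CT16, against 865, 872 and 908 CPM in control at CT4. All its CT16 libraries were higher, at 0.14 ± 0.06, with an edgeR adjusted p of 0.197. Atp5s, coupling factor B, went the other way in value, at -0.18 ± 0.08 (edgeR adjusted p = 0.189).

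In DKO none of the 89 genes passed the edgeR test between CT16 and CT4, beside 1.8% of all genes called, 1.29% higher and 0.509% lower. At an unadjusted p under 0.05, 2 were higher and 7 lower, beside 10.7% and 7.97% of all genes. DESeq2 called 2 and limma voom 3, all lower, and the share of all genes called by these methods is not given here. The median log2 fold change was -0.03 against 0.01 for all genes, and 37 members were above 0 and 52 below, beside 51.8% and 48.2% of all genes. CT16 libraries lay above CT4 libraries for 2 members and below them for 8, or 2.25% and 8.99% of the members against 8.31% and 6.38% of all genes. Cox5a had the largest negative change, -0.28 ± 0.09 (edgeR adjusted p = 0.0954), at 57.4 to 72.7 CPM in DKO at CT16 against 81.3 to 84.8 CPM in DKO at CT4. Without DKO CT16 replicate 4 the median over the members was 0.01 in place of -0.03. The 4 DKO CT16 libraries enter this comparison and that of genotype at CT16.

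The change with time was compared between genotypes in the interaction, (DKO over control at CT16) minus (DKO over control at CT4). None of the members passed the edgeR test, beside 0.0118% of all genes, or 2 genes, both higher. At an unadjusted p under 0.05, 22 members were lower and 0 higher, or 24.7% of the members against 6.78% of all genes in the lower direction and 8.34% in the higher. DESeq2 called 7 members and limma voom 6, all lower. The share of all genes that these methods called is not given here, and the edgeR share of 0.0118% is no background for their counts. The median was -0.10 against 0.02 for all genes, with 70 of 89 below 0, or 78.7% against 47.3% of all genes. By role it was -0.20 for complex IV, -0.15 for complex III, -0.14 for complex II, -0.11 for complex V, -0.10 and -0.08 for accessory and core subunits of complex I, and -0.01 for the assembly factors. After Atpif1 the named members of smallest p were Ndufa6 at -0.40 ± 0.10 (edgeR adjusted p = 0.113) and Cox8a at -0.41 ± 0.10 (0.122). In the main edgeR fit the difference in time course between genotypes was thus not called for any single member.

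Short genes and genes of the cytosolic ribosome were set beside these small shifts. Both sets had medians above 0 at CT4, as the members had, and medians near 0 at CT16. The members have short messages, with a median exonic length of 772 bases against 2808.5 for all tested genes. Tested genes of at most 1000 bases had medians, DKO over control, of -0.00 at CT16 and 0.04 at CT4. The 36 members over 1000 bases had medians of -0.04 at CT16 and 0.07 at CT4, and the 53 shorter ones had -0.06 at CT16 and 0.07 at CT4. With the trend of all genes over length removed, the median of the members was -0.08 in place of -0.05 at CT16, and 0.03 in place of 0.07 at CT4, where the call of Atpif1 was lost (edgeR adjusted p = 0.116). The part of length in these shifts was not tested further. Genes of the cytosolic ribosome, 81 by name, had 0.00 at CT16 and 0.10 at CT4, where 6 of them rose, beside 0.574% of all genes. In control over time their median was 0.07, and 4 rose, beside 2.13% of all genes. In the interaction their median was -0.09, with 65 of 81 below 0 and 25 lower at an unadjusted p under 0.05, where the members had a median of -0.10, 70 of 89 and 22.

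Cell markers moved too. In bulk tissue, fewer cells of a type and less RNA per cell cannot be told apart. None of the 14 neuronal markers was called between genotypes, but their median log2 fold change, DKO over control, was -0.14 at CT16 and 0.14 at CT4, and CT16 over CT4 it was 0.14 in control and -0.11 in DKO. Their summed level was 6117 to 7982 CPM in DKO at CT16, 7014 to 8424 in control at CT16, 7106 to 7617 in DKO at CT4 and 6895 to 7381 in control at CT4, and none was at 0. Their part in the shifts of the members was not tested. Markers of neighbouring hypothalamic nuclei had medians of -0.50 at CT16 and 0.80 at CT4, myelin markers 0.72 at CT16 and 0.01 at CT4, and the SCN neuron markers 0.09 at CT16 and -0.88 at CT4, DKO over control. Between genotypes, markers of other lists were called at CT16, where the SCN markers Rgs16 and Rasl11b, the astrocyte markers Gja1 and Agt, the endothelial Plvap and the ependymal Tmem212 rose and the astrocyte marker Aldh1l1 fell. Plvap rose at CT4 as well. Of all genes, 4.66% were called between genotypes at CT16, 1.28% at CT4, and 4.21% in control over time. In control over time, CT16 over CT4, medians were -0.42 for SCN neurons (Rgs16, Six6 and Rasl11b fell), -0.36 for endothelium and pericytes (Cldn5, Pdgfrb and Kdr fell), -0.33 for myelin, -0.32 for microglia (P2ry12 and Cx3cr1 fell), -0.21 for astrocytes (Sox9 fell), 0.25 for neighbouring nuclei (Crh rose) and 0.11 for ependyma and tanycytes. The part of these markers in the change of the members was not tested. With the scores of myelin and of neighbouring nuclei as covariates, edgeR called 2 members at CT16, Atpif1 and Ndufb4, and 2 at CT4, Atpif1 and Ndufa10, and the interaction median was -0.15. Calls among all genes in that fit are not given here.

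Across libraries, the median deviation of the 89 genes from their mean over groups ran from -0.09 to 0.06 log2 units in DKO at CT16, from -0.01 to 0.12 in control at CT16, from 0.01 to 0.03 in DKO at CT4 and from -0.08 to -0.02 in control at CT4. The 3 DKO CT4 libraries were above the 3 control CT4 libraries, and the CT16 groups overlapped. DKO CT16 replicate 4 was lowest, and it also had the lowest neuronal deviation, -0.29, and the highest myelin deviation, 1.57. Control CT16 replicate 3 was highest for the members, at 0.12, and for neurons, at 0.21. Control CT16 replicate 5, kept in all but its own leave-out, had deviations of -0.57 for SCN neurons, 0.74 for neighbouring nuclei and -1.05 for myelin. DKO CT16 replicate 3, among those left out for their markers, had -0.40, 0.52 and -0.56. For ependyma and tanycytes that replicate was further out, at 0.69 against 0.52. The DKO CT4 libraries had -0.62 to -0.46 for SCN neurons and 0.41 to 0.75 for neighbouring nuclei. Control CT4 replicates 1, 2 and 3 had -0.25, 0.83 and 0.66 for SCN neurons, and 0.48, -0.85 and -0.70 for neighbouring nuclei. For SCN neurons every DKO CT4 library was thus below every control CT4 library. The part of this tissue difference in the CT4 shift of the members was not tested. The 89 genes took 0.810% to 0.913% of counts in DKO at CT16, 0.871% to 0.951% in control at CT16, 0.886% to 0.900% in DKO at CT4 and 0.830% to 0.859% in control at CT4.

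**Figure D4:**
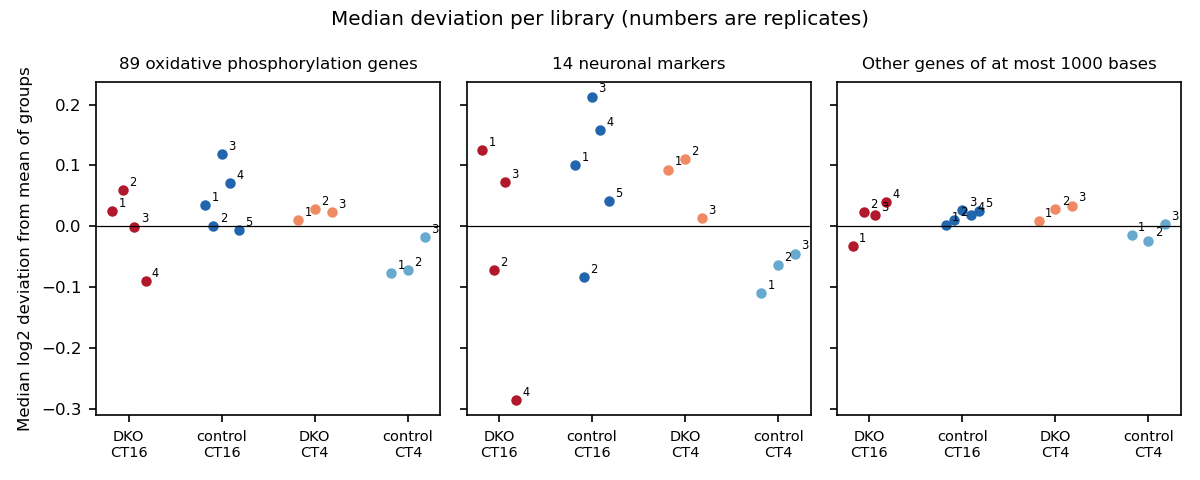
Median deviation per library in log2 units (vertical axis) of the 89 genes, of 14 neuronal markers and of other genes of at most 1000 bases, by group; each point is a library with its replicate number. DKO CT16 replicate 4 is lowest for the 89 genes and for neurons, and the control CT4 libraries lie below 0 in both.

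Genes around the respiratory chain were followed in 10 pathway lists with 165 genes, of which 158 were tested. No assembly factor outside the 89 genes passed a test in any of the 5 comparisons, among 10 tested for complex I, 4 for complex II, 6 for complex III, 24 for complex IV and 6 for complex V. The share of all genes called was 1.28% between genotypes at CT4, 4.66% at CT16, and from 0.0118% to 4.21% in the other comparisons. Of 25 regulators of respiratory genes and of mitochondrial transcription, none passed in either genotype comparison, beside the same shares of all genes. Ppargc1a, the coactivator of mitochondrial biogenesis, had 46.2 to 54.8 CPM in DKO at CT16 against 44.3 to 61.5 in control at CT16, and 47.0 to 52.3 CPM in DKO at CT4 against 44.8 to 57.8 in control at CT4. Its log2 fold change was -0.07 ± 0.09 at CT16 and -0.00 ± 0.11 at CT4. Nrf1, whose motif is common in these promoters, had 23.5 ± 0.191 CPM in DKO at CT4 against 28.2 ± 0.266 CPM in control at CT4 (SD, n = 3 each), without overlap, at -0.27 ± 0.07 (edgeR adjusted p = 0.0818). At CT16 it had 27.7 ± 2.45 CPM in DKO (SD, n = 4) against 25.6 ± 1.10 CPM in control (n = 5), with overlap, at 0.11 ± 0.06 (edgeR adjusted p = 0.292). Mef2a, a neuronal and muscle transcription factor, fell in control between day and night, at 80.02 to 91.2 CPM at CT16 against 96.4 to 98.4 CPM at CT4 (-0.21 ± 0.05, edgeR adjusted p = 0.0204). It was 1 of the 25 regulators, beside 2.08% of all genes called lower in that comparison.

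In the lists on fuel supply, 4 genes rose in DKO at CT16, beside 2.83% of all genes: 2 of 24 of the citric acid cycle and pyruvate dehydrogenase, and 2 of 21 of glycolysis and lactate. Pfkfb3, which makes the main activator of glycolytic phosphofructokinase, had 88.2, 97.5, 84.3 and 99.7 CPM in DKO at CT16, against 56.3, 55.2, 57.3, 52.4 and 60.5 CPM in control at CT16. No library overlapped, and the log2 fold change of 0.71 ± 0.05 (edgeR adjusted p = 1.33e-06) was larger than that of any of the 89 genes in that comparison. Suclg2, a subunit of the GTP-forming succinyl-CoA ligase of the citric acid cycle, rose by 0.48 ± 0.08 (edgeR adjusted p = 0.00147), at 27.8 to 33.3 CPM in DKO against 18.7 to 24.0 CPM in control. Idh2, mitochondrial isocitrate dehydrogenase, rose by 0.27 ± 0.05 (edgeR adjusted p = 0.00513), and Pfkl, a phosphofructokinase, by 0.21 ± 0.06 (adjusted p = 0.0396). Tomm40, the pore of the outer-membrane import machinery, fell by 0.20 on the log2 scale (SE 0.05, edgeR adjusted p = 0.0463), at 52.0 to 61.3 CPM in DKO against 63.2 to 71.0 CPM in control. At CT4 the only call in these lists was Gpx1, a glutathione peroxidase, at 66.3, 65.5 and 64.9 CPM in DKO against 50.5, 53.9 and 54.3 CPM in control (0.31 ± 0.06, edgeR adjusted p = 0.0270). Of all genes, 1.83% were called lower in DKO at CT16 and 0.574% higher at CT4. No call in the pathway lists is followed under the alternatives here, and those of Tomm40 and Pfkl lay near the threshold.

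Of all genes, 2.13% were called higher with time, CT16 over CT4, in control and 1.29% in DKO. At night, CT16 over CT4, Slc2a1, the glucose transporter GLUT1, rose in both genotypes. It had 169, 205, 209 and 188 CPM in DKO at CT16 against 117, 111 and 111 CPM in DKO at CT4, at 0.77 ± 0.07 (edgeR adjusted p = 1.42e-05). In control it had 196, 201, 176, 190 and 197 CPM at CT16 against 114, 119 and 119 CPM at CT4, at 0.71 ± 0.06 (adjusted p = 1.87e-05). Pdp1, the phosphatase that activates pyruvate dehydrogenase, also rose in both, by 0.32 ± 0.07 in DKO (edgeR adjusted p = 0.0283) and 0.34 ± 0.07 in control (adjusted p = 0.00885). Hspe1, the mitochondrial co-chaperonin, rose in control by 0.36 ± 0.09 (edgeR adjusted p = 0.0295). The interaction was not called for any of these genes.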

How the data were processed

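Total RNA of SCN punches was sequenced, and the authors deposited a table of whole-number read counts per gene and library, not normalized, with each gene's exonic length per the file headers. STAR, featureCounts, DESeq2 and the build mm10 were used per the submitters' processing notes. The sources used here do not give versions, annotation, strand setting or whether reads or pairs were counted. Of 44845 deposited counts from 1 to 20, 24.7% were odd. Libraries were matched to groups by their titles.

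All 15 libraries were fitted together in edgeR 4.0.16 (R 4.3.3) with filterByExpr, TMM factors, 4 group means with 11 residual degrees of freedom, the robust quasi-likelihood test and 5 contrasts. A call means an adjusted p (Benjamini-Hochberg, over all 16910 tested genes) under 0.05. Each SE was taken from the fold change and its F statistic. Printed CPM values use library sizes scaled by TMM, and the limit of 1 CPM uses plain totals. Library deviations are medians over genes of log2 CPM (prior count 2) minus the mean of the 4 group means. The method was tested on simulated data, in which the changes were all larger than those of the members called here. That test therefore does not cover shifts as small as theirs. The spread between libraries of a group exceeded counting noise (chi-square per degree of freedom 6.57 to 124), and no pair was alike within sampling noise.

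Members and lists were chosen with earlier results of these data known. Genes named were those called, those of highest and lowest level and of smallest p in each role, tissue forms with their partners, and those nearest the limit; the libraries apart in tissue markers were also known. Some others outside this rule were named after their values were seen: Ndufs5, Ndufa2, Ndufa10, Atp5d, Uqcrh, Ndufa13, Nrf1, Gabpa and Ppargc1a. The split by length and the ribosomal genes were likewise chosen. Copies were sought with BLAST 2.17.0 in GENCODE transcripts (94 of 95 names matched). Alternatives were other size factors, DESeq2 1.42.0, limma 3.58.1 voom, other filters, the compared groups alone, a replicate block, removal of a length trend, marker scores as covariates, and leaving out libraries.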

Additional observations from a re-analysis of the deposited data

Results flagged for a closer look

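In 8 of 86 groups of 4 or 5 libraries checked for the named genes, 1 library lay far from the others of its group, where chance gives about 1 in 20. In DKO at CT16 it was replicate 4 each time, and always low. There Atp5g3 had 175.6 CPM against 202 to 205 CPM in the other 3, Cox5a 57.4 against 71.5 to 72.7, Cycs 48.9 against 62.7 to 65.3, and Sdhd 59.3 against 72.4 to 74.1. That library also had the lowest neuronal and the highest myelin marker deviation, -0.29 and 1.57 log2 units, whose part in these values was not tested.

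In control at CT16, replicate 3 had 218 CPM of Atp5g3 against 194 to 199 CPM in the other 4. Replicate 4 had 68.1 CPM of Atp5l against 52.9 to 57.2 and 88.96 CPM of Cox7b against 73.8 to 76.4, and replicate 5 had 117 CPM of Cox6a1 against 132 to 134.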

How the results depend on the processing

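The 27 alternatives (26 for the interaction) left the sign of the members' median unchanged in every comparison but 1: it was above 0 at CT4 and in control over time, and below 0 at CT16 and in the interaction, while in DKO over time it was below 0 under 22 and above 0 under 5. Counts of called members moved more. The share of all genes called under each alternative is not given here, so these counts cannot be read as more than that share. At CT4 (1 called) they were 6 with DESeq2, 8 with limma voom, 6 with the compared groups alone, 2 with marker covariates, 2 (Ndufa4 and Ndufa6, not Atpif1) without the 3 libraries apart in tissue markers (control CT4 replicate 1 and replicates 3 and 4 of DKO at CT16), and 0 with upper quartile factors, with the length trend removed, with the replicate block and with both of these; the cause was not tested. At CT16 (1 called) they were 3 with DESeq2, 2 with limma voom, 2 with covariates, and 0 with the compared groups alone, with the replicate block, with the block and the length trend removed, and without those 3 libraries, where the median was -0.0055 in place of -0.05. With the length trend removed the CT4 median was 0.03 in place of 0.07. In control over time (4 called) they were 13 with DESeq2, 17 with limma voom, 8 with covariates, 2 with upper quartile factors, 1 with the replicate block and 2 with the block and the length trend removed, which moved the median to 0.16. In DKO over time (0 called) they were 2 and 3 with DESeq2 and limma voom, and the median moved to 0.026 without the 3 libraries. In the interaction (0 called) they were 7 with DESeq2, 6 with limma voom, 1 with no filter, 1 with the stricter filter, 1 with covariates (median -0.15) and 2 without the 3 libraries (median -0.047).

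Leaving out 1 library at a time gave 0 to 3 called members at CT4 (median 0.06 to 0.08), 0 to 2 at CT16 (-0.07 to -0.02), 0 to 10 in control over time (0.08 to 0.12), 0 to 1 in DKO over time (-0.05 to 0.01) and 0 to 3 in the interaction (-0.13 to -0.07). The highest counts came without control CT16 replicate 4 (3 at CT4, and 2 without DKO CT16 replicate 3 or 4), control CT16 replicate 2 (2 at CT16) and DKO CT16 replicate 4 (10 in control over time, and 7 without control CT16 replicate 2) or 3 (1 in DKO over time and 3 in the interaction). In control over time, 0 were called without control CT4 replicate 1, 1 without replicate 2, and 2 without DKO CT4 replicate 1 or 3 or control CT16 replicate 1, 3 or 4. At CT16 the median without DKO replicate 4 was -0.02. For single named genes, 57 of 5614 values lost a call, 81 gained one and 0 changed sign past the threshold. The other 5476 kept their side of the threshold, and 207 of these, none called, had the other sign. Most of the values belong to results not called in the main fit, which could not lose a call. Among 27 alternatives each, Atpif1 lost its call in 14 at CT4, 9 at CT16 and 3 in control over time. In control over time Ndufa12 lost its call in 3, Uqcrq in 15 and Cox8a in 13. Replicate numbers did not pair the libraries, with correlations of same-numbered deviations from -0.18 to 0.14. With small groups, the median SE over the 89 genes was 0.07 on the log2 scale between genotypes at CT4, so that shifts near 0.1 were seldom callable.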
